A study of Mus musculus with 12 samples.

Results

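Amino acid transporter genes of the SLC1, SLC3, SLC6, SLC7, SLC36, SLC38 and SLC43 families were examined in mouse gastrocnemius, the main calf muscle. Members were chosen by symbol: a protein-coding gene whose name starts with one of these family names and whose counts summed to at least 15 over the 12 libraries. Of 43432 gene identifiers, 63 protein-coding symbols matched and 35 reached that sum. The other 28 did not, and 16 of them were listed at 0 in every library. Of the 35 members, 5 were grouped as large neutral amino acid carriers. Among these is Slc43a3, whose product carries purine bases rather than amino acids. There were 1 heavy chain, 2 other light chains, 2 cationic carriers and 8 SLC38 members. The others were 4 glutamate and neutral carriers of SLC1, 3 proton-coupled carriers, 9 SLC6 members and Slc7a6os. Slc7a6os also matches the name pattern but is not a transporter: it is named for its place beside Slc7a6 on the opposite strand. One SLC7 gene that the selection leaves out is not analysed here.

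RNA was sequenced from male mice in 4 groups of 3 libraries. The groups were sedentary and exercised (Exe, taken after a 90 min run) muscle of WT mice, which carry fl/fl alleles, and of cFeimin MKO mice, in which cellular Feimin is knocked out. The labels and protocols used here do not give the Cre driver, the age of the mice, the number of animals per library or the time from run to sampling. Nothing states that replicates were separate animals, so p-values measure the spread between these samples.

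Cells take up amino acids through carriers that differ in substrate and in driving force. Sodium-coupled carriers such as SLC38A2 concentrate small neutral amino acids such as glutamine and alanine, and exchangers such as SLC7A5 trade intracellular amino acids for leucine and other large neutral ones. SLC7A5 and several relatives reach the cell surface only when bound to the heavy chain SLC3A2. In skeletal muscle this uptake feeds protein synthesis and the leucine and arginine signals to mTORC1, while SLC6A8 and SLC6A6 bring in creatine and taurine.

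The libraries held 14324010 to 14563501 counts, and the members took between 0.0632% and 0.0803% of them. Levels are given as CPM, counts scaled to the normalised library size, and 3 counts corresponded to 0.181 to 0.222 CPM. The targeted gene, taken from general knowledge to be B230219D22Rik, had 49 to 92 counts in the 6 MKO libraries and 293 to 405 in the 6 WT libraries. Fast-fibre genes such as Myh4 were abundant in every library. Sedentary MKO replicate 3 stood apart: its 8 slow-fibre genes summed to 115 CPM, against 595 to 1898 in the other 11 libraries. It also held the highest Slc38a4 and Slc7a2 and the lowest Slc38a3 of all libraries (91.0, 84.0 and 26.5 CPM). Exercised WT replicate 5 and exercised MKO replicate 4 stood apart in earlier results of these data, and leaving out these 3 libraries was among the alternatives tried.

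To compare genes, levels were divided by exon length, the merged length of all annotated exons of a gene rather than of the transcript expressed. The order depends on this: in mean CPM without the division, Slc38a3 (61.7) lay above Slc38a4 (59.5). The most abundant member was Slc38a2, the sodium-coupled neutral amino acid carrier of system A, at 19.2 CPM per kb of exon over the 12 libraries. Slc6a8, the creatine carrier, followed at 16.0, then Slc38a4, also of system A, at 13.97, Slc38a3, the system N glutamine carrier, at 11.7 and Slc3a2, the heavy chain, at 9.35. The first 4 members held 52.9% of the summed CPM per kb and the first 10 held 85.6%. The order of neighbours near the top was not fixed: in sedentary WT muscle Slc38a2 (17.6 ± 1.58, SD, n = 3) and Slc6a8 (16.8 ± 2.01) lay within each other's spread. At the other end, the transporters of noradrenaline (Slc6a2), serotonin (Slc6a4) and proline (Slc6a7), together with Slc6a18, never exceeded 10 counts in a library. In all, 5 SLC6 members were too low to be tested, and the other 30 members were tested with edgeR among 14486 genes.

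**Figure D1:**
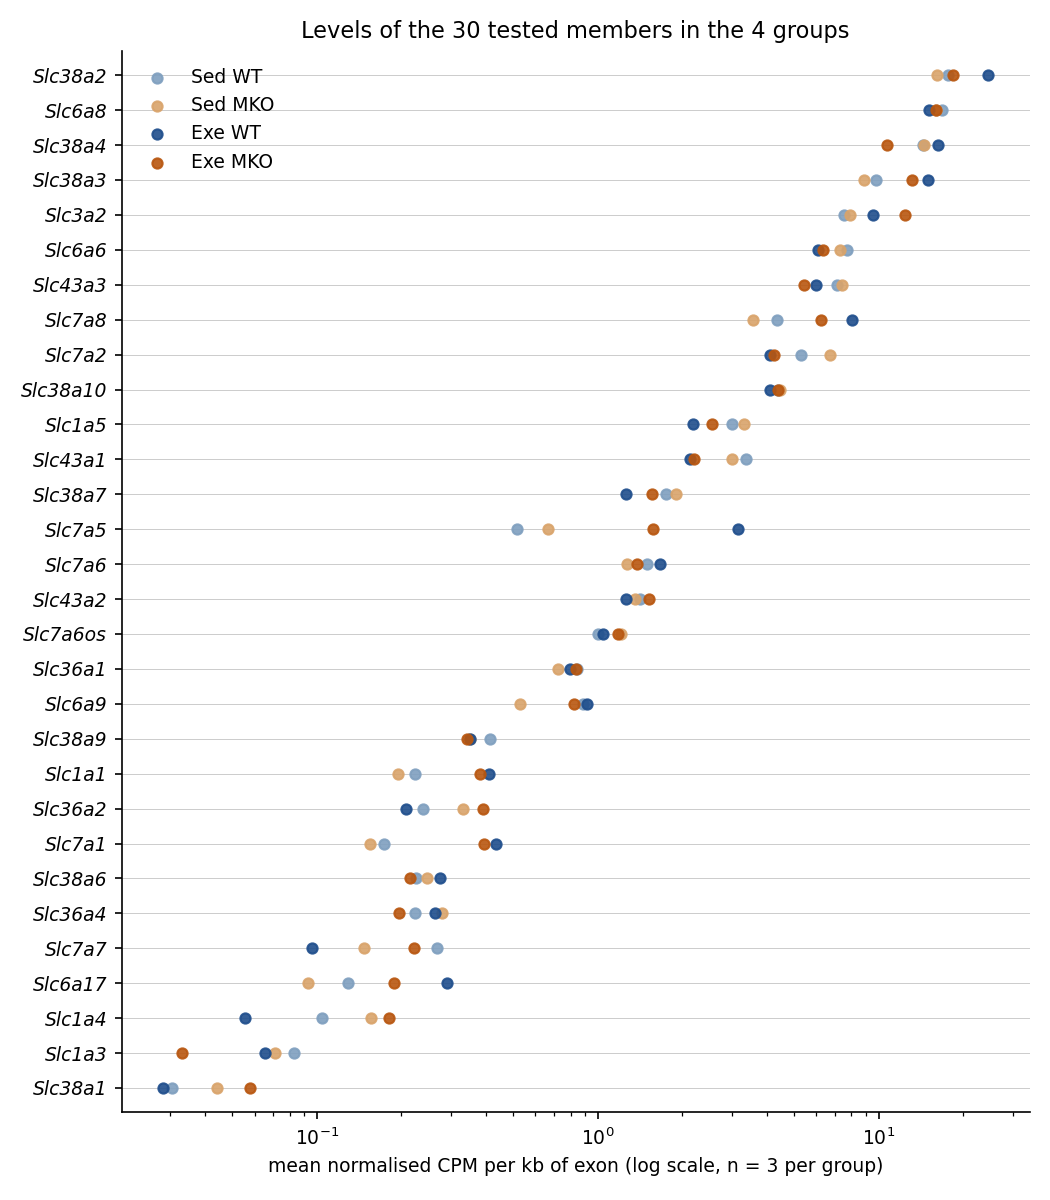
Mean normalised CPM per kb of exon (x axis, log scale) of each of the 30 tested members in the 4 groups, n = 3 libraries per group. Slc38a2, Slc6a8, Slc38a4 and Slc38a3 lie at the top.

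How a run bears on these carriers was asked first in WT muscle. Of the 30 members tested, 2 rose and 2 fell: Slc7a5 and Slc7a1 rose, Slc43a1 and Slc38a7 fell. That is 13.3% of the members, where 8.24% of all 14486 genes passed, 4.14% as higher and 4.1% as lower (edgeR, Benjamini-Hochberg adjusted p under 0.05). The median log2 fold change of the members was -0.09, against -0.007 over all genes. Exercised and sedentary libraries did not overlap for 9 members (30%; 6 higher and 3 lower), and 27.3% of all genes were so separated (12.5% higher and 14.8% lower).

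Slc7a5 (ENSMUSG00000040010; GRCm38 chromosome 8, 121881150 to 121907694, minus strand) encodes the leucine exchanger LAT1. Its level was 2.47, 1.35 and 1.92 CPM in sedentary WT replicates 1, 3 and 4, and 10.9, 12.6 and 11.5 CPM in exercised WT replicates 3, 4 and 5. Every exercised library lay above every sedentary one. The log2 fold change was 2.60 ± 0.23 (SE; 6.08-fold; edgeR adjusted p = 5.68e-05), the 31st smallest p of all genes. It passed in each of 15 alternative settings, at 2.40 to 2.83.

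Its partner Slc3a2, the heavy chain that carries SLC7A5 to the membrane, was at 29.3, 23.3 and 27.0 CPM in sedentary WT and 28.2, 36.4 and 36.9 CPM in exercised WT muscle. These ranges overlapped through exercised WT replicate 3, and the change of 0.35 ± 0.14 did not pass (edgeR adjusted p = 0.176). Slc7a8 encodes LAT2, a second leucine exchanger that binds the same heavy chain. It was at 39.2, 13.1 and 12.9 CPM in sedentary WT and at 34.97, 45.8 and 40.1 CPM in exercised WT muscle. Sedentary WT replicate 1 was as high as the exercised libraries, and the change of 0.89 ± 0.36 did not pass (edgeR adjusted p = 0.166). Without that library it was 1.63 and passed (adjusted p = 0.000809), and without any other single library it was 0.63 to 0.99 and did not.

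The SLC43 carriers LAT3 and LAT4 move large neutral amino acids by facilitated diffusion and need no heavy chain. Slc43a1 (LAT3; ENSMUSG00000027075; GRCm38 chromosome 2, 84838850 to 84863594, plus strand) was at 24.3, 15.8 and 17.6 CPM in sedentary WT and 12.5, 12.5 and 11.7 CPM in exercised WT muscle. All 3 exercised libraries were lower, at a log2 fold change of -0.66 ± 0.15 (edgeR adjusted p = 0.0188). The call was lost without sedentary WT replicate 1 (-0.45, adjusted p = 0.0528), and also without exercised WT replicate 3, 4 or 5, where the adjusted p was 0.0588 to 0.0690. The replicate number as a block, fitting only the compared groups and leaving out the 3 libraries that stood apart ended it too. Slc43a2 (LAT4) had -0.17 ± 0.21. Slc43a3, whose product carries purine bases rather than amino acids, had -0.24 ± 0.18, and neither passed (edgeR adjusted p = 0.724 and 0.502).

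**Figure D2:**
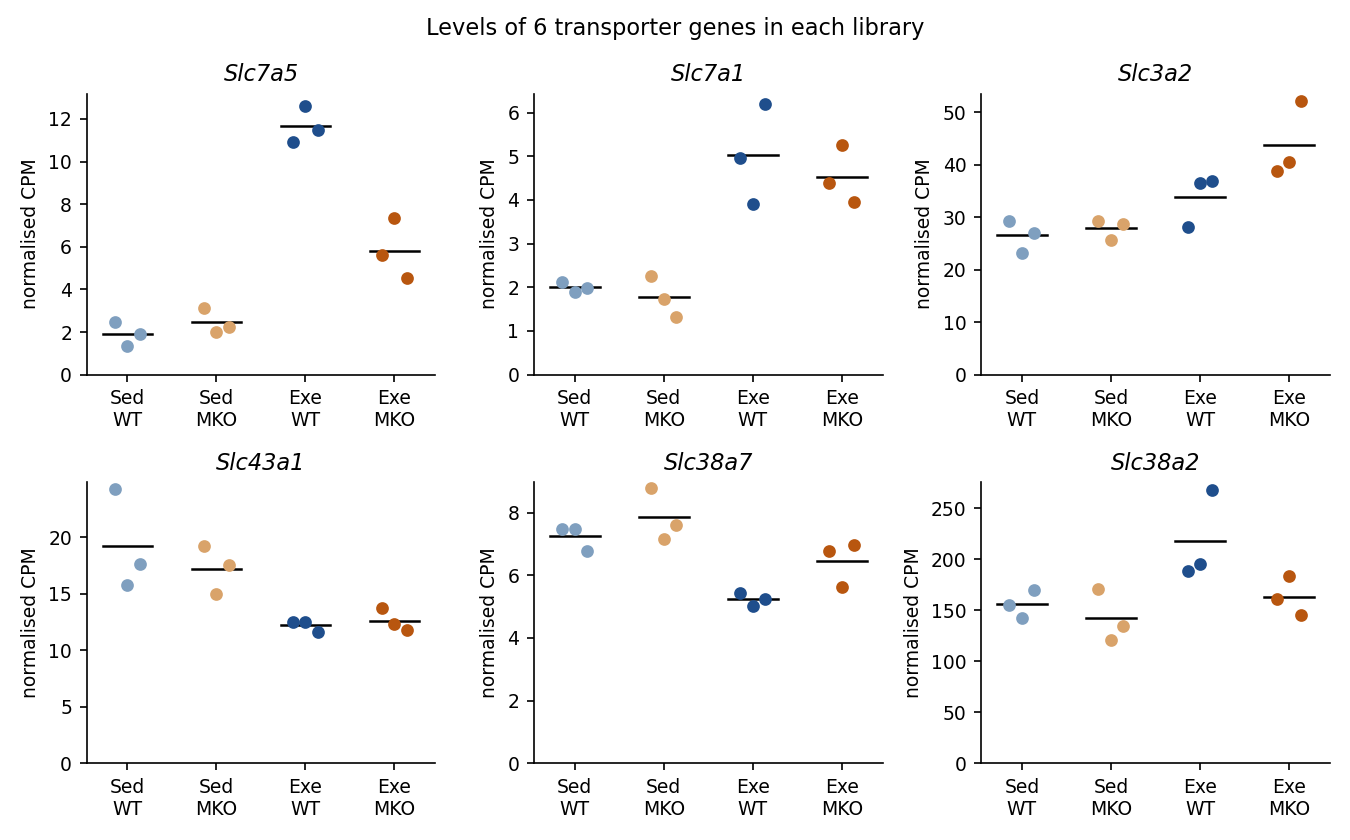
Normalised CPM (y axis, from 0) of 6 transporter genes in each of the 12 libraries; points are libraries and bars are group means (n = 3). For Slc7a5 the 3 exercised WT libraries (10.9 to 12.6 CPM) lie above the 3 exercised MKO libraries (4.53 to 7.33 CPM), and both lie above all sedentary libraries.

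Slc7a1 (ENSMUSG00000041313; GRCm38 chromosome 5, 148327410 to 148399904, minus strand) encodes CAT1, the main carrier of arginine and lysine into most cells. It was at 2.13, 1.89 and 1.99 CPM in sedentary WT and at 4.96, 3.92 and 6.19 CPM in exercised WT muscle. The groups did not overlap, and the log2 fold change was 1.32 ± 0.21 (edgeR adjusted p = 0.00245). It passed in each of 15 alternative settings, at 1.15 to 1.48. The other cationic carrier, Slc7a2 (CAT2), was at 54.0, 54.7 and 36.2 CPM at rest and at 11.5, 53.3 and 47.6 CPM after the run. Exercised WT replicate 3 was thus far below the rest, and the difference of -0.37 ± 0.45 (edgeR adjusted p = 0.716) became 0.07 without it. The y+L exchangers Slc7a6 and Slc7a7, which release cationic amino acids and also bind SLC3A2, did not pass (0.15 ± 0.14 and -1.46 ± 0.78; edgeR adjusted p = 0.625 and 0.315). Slc7a7 was at 0 to 0.962 CPM and its exons share 232 bases with Oxa1l on the opposite strand, so its few counts are uncertain.

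Among the 8 SLC38 members, Slc38a7 fell and none rose. Slc38a7 (ENSMUSG00000036534; GRCm38 chromosome 8, 95835920 to 95853539, minus strand) encodes a carrier that exports glutamine from lysosomes. It was at 7.49, 7.48 and 6.79 CPM at rest and at 5.45, 5.02 and 5.24 CPM after the run. The groups did not overlap, and the change was -0.47 ± 0.12 (edgeR adjusted p = 0.0309). The size held at -0.43 to -0.57 over the 15 alternatives, but the call held in 6 of them. It was lost with DESeq2 (adjusted p = 0.130), without sedentary WT replicate 1 or 3 and without exercised WT replicate 3, 4 or 5 (adjusted p = 0.0707 to 0.0996). The replicate number as a block, fitting only the compared groups and leaving out the 3 libraries that stood apart also ended the call.

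Slc38a2, the most abundant member, was at 155, 142 and 170 CPM in sedentary WT and 189, 195 and 268 CPM in exercised WT muscle. All 3 exercised libraries were higher, yet the change of 0.48 ± 0.16 did not pass (edgeR adjusted p = 0.103). Slc38a3 behaved alike in its values: 50.03, 45.2 and 59.1 CPM at rest against 66.8, 72.9 and 96.7 CPM after the run, at 0.61 ± 0.26 (edgeR adjusted p = 0.193). Slc38a4 had 0.19 ± 0.25. Slc38a1, the system A carrier of brain and many other tissues, was near the floor at 0.283 to 0.687 CPM in WT muscle (-0.11 ± 0.55). Slc38a9, the lysosomal arginine sensor, had -0.23 ± 0.14 and Slc38a10 -0.10 ± 0.16, and Slc38a6 had 0.29 ± 0.23. The summed level of the 8 genes was 48.5 ± 1.84 CPM per kb in sedentary WT and 61.9 ± 7.35 in exercised WT muscle (SD, n = 3). Most of that sum was Slc38a2, Slc38a3 and Slc38a4.

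Promoter windows from RefSeq (GRCm38.p6) were matched for 22 of the 35 members, Slc7a5 not among them. The 250 bases before each start were searched on both strands for 5 motifs. For the AP-1 site the pattern TGANTCA was used, in which N is any base. It stood in 5 of the members' 34 windows, where 6.75% of all 32851 windows hold it. The letters were TGACTCA in Slc7a1 and TGATTCA in Slc38a7 and Slc38a10. In the 2 windows of Slc6a17 they were TGAATCA and TGAGTCA. The E-box, CACGTG, stood in 3 of the 34 (Slc43a1, Slc38a7 and Slc36a1; 6.02% of all windows). The cAMP response element, TGACGTCA, stood in 1 window, of Slc38a6 (1.55% of all), the amino acid response element, TGATGNAAN, in 2 windows of Slc7a7 (3.44%), and the serum response element in none (1.47%). These are matches of letters, with no measurement of binding.

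Shown here are the 3 changed members that had a match. The Slc7a1 stretch is chr5:148399905-148400154 on the minus strand, the 250 bases before the start, with the AP-1 match in capitals at 123 to 117 bases before it. The Slc43a1 stretch is chr2:84840243-84840272 on the plus strand with the E-box in capitals. That of Slc38a7 is chr8:95853512-95853541 on the minus strand, with the TGANTCA match (here TGATTCA) and then the E-box in capitals. The starts used for Slc43a1 and Slc38a7 lie inside the annotated genes, and both stretches overlap an annotated exon. All are 5′ to 3′.
Slc7a1: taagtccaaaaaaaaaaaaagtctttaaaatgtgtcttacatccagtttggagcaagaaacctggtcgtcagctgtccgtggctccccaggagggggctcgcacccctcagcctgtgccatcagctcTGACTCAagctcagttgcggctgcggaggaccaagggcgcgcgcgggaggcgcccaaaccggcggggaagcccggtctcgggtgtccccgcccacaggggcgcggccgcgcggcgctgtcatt
Slc43a1: gcccagggtctccctcCACGTGgcagccgt
Slc38a7: tcatgTGATTCAggctCACGTGttacttga

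No SLC1, SLC36 or SLC6 member passed in WT muscle. Slc1a5 encodes ASCT2, a glutamine exchanger. It was at 13.5, 10.4 and 13.7 CPM at rest and at 7.64, 8.79 and 10.9 CPM after the run (-0.46 ± 0.15; edgeR adjusted p = 0.0898), and the groups overlapped. Slc1a5 passed without sedentary WT replicate 3 and without exercised WT replicate 5. Over 15 alternatives its adjusted p lay between 0.0372 and 0.299. Slc1a1, the glutamate carrier EAAT3, was at 1.72, 1.48 and 2.33 against 4.11, 3.10 and 2.95 CPM, with no overlap (0.88 ± 0.30; edgeR adjusted p = 0.106). It passed when the 3 libraries named above were left out (0.97, adjusted p = 0.0311) and when only the compared groups were fitted. Without any single library it did not pass (0.72 to 1.09). The exons of Slc1a1 share 2631 bases with 4430402I18Rik on the opposite strand. Slc1a3 (the glutamate carrier EAAT1) and Slc1a4 stayed under 1 CPM in every library, at -0.34 ± 0.39 and -0.88 ± 0.68.

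The proton-coupled carriers Slc36a1, Slc36a2 and Slc36a4, of which SLC36A1 exports small amino acids from lysosomes, had -0.09 ± 0.17, -0.19 ± 0.63 and 0.24 ± 0.23. In SLC6, creatine carrier Slc6a8 was at 75.5, 92.7 and 94.5 CPM at rest and at 73.7, 77.5 and 84.7 CPM after the run. Its groups overlapped, and the change of -0.16 ± 0.12 did not pass (edgeR adjusted p = 0.516). Taurine carrier Slc6a6 had -0.34 ± 0.15 (edgeR adjusted p = 0.201), with sedentary libraries that moved it both ways: it was -0.51 without replicate 1, where it passed (adjusted p = 0.0305), and -0.19 without replicate 3 (adjusted p = 0.578). Slc6a17, a neuronal vesicle carrier of neutral amino acids, had 1.17 ± 0.34 (edgeR adjusted p = 0.0586). Its exercised WT libraries, at 2.76, 1.77 and 4.42 CPM, all lay above the sedentary 1.51, 0.877 and 1.58 CPM. Without exercised WT replicate 4 it passed (1.45, adjusted p = 0.0227), and without exercised WT replicate 5 it was 0.78 (adjusted p = 0.213). Glycine carrier Slc6a9 had 0.04 ± 0.18.

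The same comparison was made in MKO muscle. There 3 of the 30 members rose and none fell: Slc7a1, Slc7a5 and Slc3a2. This is 10% of the members, where 4.05% of all genes passed, 2.29% as higher and 1.75% as lower (edgeR). No overlap between rest and run was seen for 12 members (40%; 7 higher and 5 lower), against 21.7% of all genes (10.1% higher and 11.6% lower). The median log2 fold change was 0.15, against 0.002 over all genes.

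Slc7a1 was at 2.27, 1.74 and 1.33 CPM in sedentary MKO replicates 1, 2 and 3 and at 4.38, 5.26 and 3.95 CPM in exercised MKO replicates 1, 2 and 4. The groups did not overlap, at 1.35 ± 0.22 (edgeR adjusted p = 0.00465). Slc7a5 was at 3.13, 2.01 and 2.24 CPM at rest and at 5.62, 7.33 and 4.53 CPM after the run. All exercised libraries were higher, at 1.24 ± 0.23 (2.37-fold; edgeR adjusted p = 0.0101). It passed in 14 of 15 alternatives and missed without sedentary MKO replicate 2 (1.12, adjusted p = 0.0520).

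Slc3a2 was at 29.3, 25.6 and 28.8 CPM in sedentary MKO and at 38.8, 40.5 and 52.1 CPM in exercised MKO muscle. The groups did not overlap, at 0.65 ± 0.14 (ENSMUSG00000010095; GRCm38 chromosome 19, 8706882 to 8723369, minus strand; edgeR adjusted p = 0.0240). The call held in 6 of 15 alternatives, and not with the replicate number as a block or with only the compared groups fitted. It was lost without sedentary MKO replicate 1, 2 or 3, without exercised MKO replicate 2 or 4 (adjusted p = 0.0540 to 0.104), and without the 3 libraries named above (0.53, adjusted p = 0.112). It was also lost with total counts as the only scaling (0.50, adjusted p = 0.0651), a scaling that shifted the median of all genes to -0.15 and under which Slc43a1 passed as lower (-0.60).

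Members that passed in WT muscle alone had values of the same sign here: -0.45 ± 0.15 for Slc43a1 and -0.28 ± 0.12 for Slc38a7 (edgeR adjusted p = 0.143 and 0.267). Slc38a2 had 0.20 ± 0.16 and Slc38a3 0.57 ± 0.26. Slc38a4 had -0.44 ± 0.25, and 0.15 without the 3 libraries named above, of which sedentary MKO replicate 3 held its highest level. Slc7a8 had 0.80 ± 0.36 and Slc7a6 0.13 ± 0.14. Slc7a2 had -0.65 ± 0.45 and Slc1a5 -0.38 ± 0.15. Slc6a9 was at 2.998, 2.54 and 2.60 CPM at rest and at 4.73, 3.78 and 4.17 CPM after the run, without overlap, at 0.64 ± 0.19 (edgeR adjusted p = 0.102). Slc1a1 had 0.96 ± 0.31 (edgeR adjusted p = 0.122). It passed without exercised MKO replicate 4 (1.26, adjusted p = 0.0130) and without the 3 libraries named above, of which that replicate is 1. Without exercised MKO replicate 2 it was 0.75 (adjusted p = 0.393). Slc6a8 and Slc6a6 had -0.0088 ± 0.12 and -0.20 ± 0.15.

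The low members gave wide errors in MKO muscle too: 0.57 ± 0.72 for Slc7a7, -1.06 ± 0.44 for Slc1a3, 0.23 ± 0.51 for Slc1a4, 0.40 ± 0.46 for Slc38a1 and 0.25 ± 0.53 for Slc36a2. Slc38a9 had -0.03 ± 0.14, Slc38a10 -0.03 ± 0.16 and Slc36a1 0.22 ± 0.17. None of these 8 passed.

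The WT and MKO responses share no libraries. Of the 30 members, 20 (66.7%) had the same sign in both, against 66.9% of all 14486 genes. Across the members Pearson's r between the log2 fold changes was 0.63 (n = 30 genes) and Spearman's rho 0.57, against 0.60 and 0.53 over all genes. Genes are not independent replicates, so these values are descriptions.

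**Figure D3:**
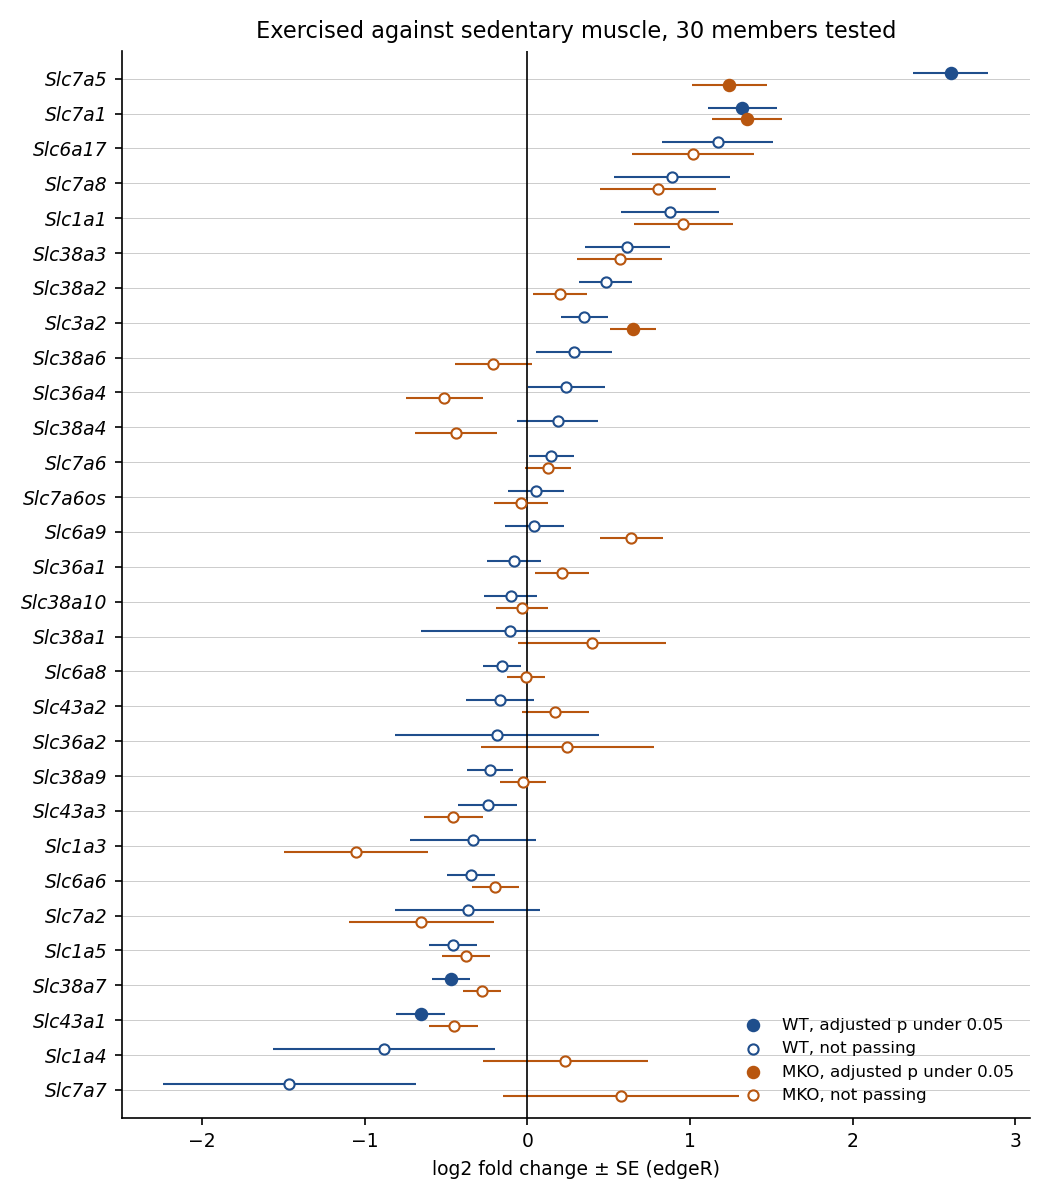
Log2 fold change ± SE (x axis) of exercised against sedentary muscle for the 30 tested members, in WT (blue) and MKO (orange); filled points have an edgeR adjusted p under 0.05. Slc7a5 (2.60 in WT, 1.24 in MKO) and Slc7a1 (1.32 and 1.35) are filled in both genotypes.

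SLC7A5, SLC7A6, SLC7A7 and SLC7A8 share the heavy chain SLC3A2, so their mRNA levels were set against it per kb of exon. Slc7a5 amounted to 0.0552 to 0.0804 of Slc3a2 in sedentary WT and 0.0740 to 0.102 in sedentary MKO muscle. It reached 0.297 to 0.368 in exercised WT libraries and 0.0827 to 0.173 in exercised MKO libraries. The exercised WT libraries thus lay above all others, while the exercised MKO libraries overlapped with the sedentary ones. The 4 light chains together came to 1.26 to 1.46 per Slc3a2 in exercised WT libraries and to 0.561 to 0.947 in exercised MKO libraries. Sedentary WT replicate 1 reached 1.23, with its high Slc7a8. Slc7a5 made up 8.22% ± 1.82 of the 4 light chains in sedentary WT, 11.97% ± 3.90 in sedentary MKO, 24.3% ± 0.787 in exercised WT and 16.7% ± 3.51 in the exercised MKO group (SD, n = 3). These ratios combine levels described above and were not tested. They are of mRNA, and say nothing of protein complexes.

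**Figure D4:**
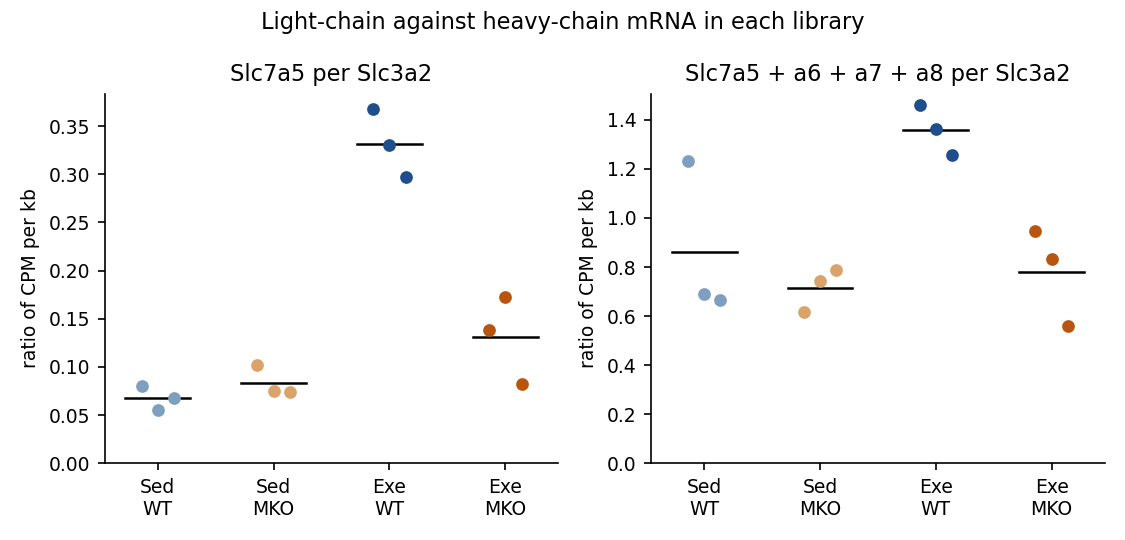
Ratio of CPM per kb (y axis, from 0) of Slc7a5 (left) and of Slc7a5, Slc7a6, Slc7a7 and Slc7a8 together (right) to Slc3a2 in each library; bars are group means (n = 3). In the left panel exercised WT libraries lie at 0.297 to 0.368 and exercised MKO libraries at 0.0827 to 0.173.

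The comparisons of MKO with WT muscle ask what loss of cellular Feimin does to these genes. In sedentary muscle 0 of 30 members passed with edgeR, where 0.0069% of all genes did, and 0 passed with DESeq2 or limma-voom. At an unadjusted p under 0.05 there were 545 of all 14486 genes and 1 of the 30 members, Slc6a9. It was at 4.40, 3.98 and 5.28 CPM in WT and 2.998, 2.54 and 2.60 CPM in MKO muscle, without overlap (-0.75 ± 0.19; edgeR adjusted p = 1). Its value ranged from -0.83 to -0.62 over 15 alternatives. The exons of Slc6a9 share 1429 bases with Ccdc24 on the opposite strand. The next smallest p-values belonged to Slc7a6 (-0.24 ± 0.14) and Slc38a9 (-0.24 ± 0.14). Slc7a5 had 0.36 ± 0.26, Slc3a2 0.07 ± 0.14, Slc7a1 -0.18 ± 0.24, Slc38a2 -0.13 ± 0.16 and Slc6a8 -0.07 ± 0.12. Slc7a8 had -0.28 ± 0.36, Slc43a1 -0.16 ± 0.15, Slc7a2 0.34 ± 0.44, Slc1a5 0.14 ± 0.14 and Slc6a6 -0.08 ± 0.15. In SLC38, Slc38a3 had -0.13 ± 0.26, Slc38a4 0.02 ± 0.25, Slc38a10 0.02 ± 0.16 and Slc38a1 0.52 ± 0.50. The low members Slc7a7, Slc1a3, Slc1a4 and Slc36a2 had -0.84 ± 0.70, -0.22 ± 0.37, 0.56 ± 0.55 and 0.47 ± 0.57, and Slc36a1 had -0.23 ± 0.17. For 3 members (10%), all lower in MKO, the genotypes did not overlap, against 10.3% of all genes (5.43% higher and 4.91% lower), and the median was -0.06 against 0.002.

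In exercised muscle 0 of 30 members passed with edgeR, where 0.0345% of all genes did (0.0069% as higher and 0.0276% as lower). With limma-voom 0 members passed, where 0.0414% of all genes did. With DESeq2 1 member passed, where 0.656% of all genes did. An unadjusted edgeR p under 0.05 was seen for 2319 of all 14486 genes and for 6 of the 30 members. The smallest p was that of Slc7a5, the 33rd of all genes. Its 3 exercised MKO libraries (5.62, 7.33 and 4.53 CPM) all lay below the 3 exercised WT libraries (10.9, 12.6 and 11.5 CPM). The log2 fold change was -1.003 ± 0.20 (edgeR adjusted p = 0.172). It passed with DESeq2 (-1.01, adjusted p = 0.0187) and without exercised MKO replicate 2 (-1.21, adjusted p = 0.0319), where 0.732% of all genes passed. Over 15 alternatives the value lay between -1.35 and -0.86 and the adjusted p between 0.0187 and 0.656.

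The other 5 were Slc1a4, Slc3a2, Slc38a2, Slc38a7 and Slc38a4. Slc1a4, the neutral carrier ASCT1, had 1.67 ± 0.63 at 0 to 0.862 CPM, so that 0 to 12 counts per library decide it (edgeR adjusted p = 0.243). Slc3a2 went the other way from its partner Slc7a5, at 28.2, 36.4 and 36.9 CPM in WT and 38.8, 40.5 and 52.1 CPM in MKO muscle (0.37 ± 0.14; edgeR adjusted p = 0.246). Slc38a2 was at 189, 195 and 268 CPM in WT and 161, 184 and 145 CPM in MKO muscle (-0.41 ± 0.16; edgeR adjusted p = 0.261). Slc38a4 was at 70.8, 72.1 and 65.7 against 49.7, 55.2 and 32.3 CPM (-0.61 ± 0.25; edgeR adjusted p = 0.274), and Slc38a7 had 0.30 ± 0.12. None of these groups overlapped. In all, MKO and WT libraries were separate for 9 members (4 higher and 5 lower in MKO; 30%), where 23.1% of all genes were so separated (11.1% higher and 12% lower). The median was 0.006 against 0.007 over all genes. Slc7a1, which rose after the run in both genotypes, had -0.15 ± 0.19, and Slc7a8 had -0.37 ± 0.35. Slc43a1, which fell after the run in WT muscle, had 0.05 ± 0.15.

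The remaining members did not pass between the exercised groups either. Slc6a8, Slc6a6 and Slc6a9 had 0.08 ± 0.12, 0.07 ± 0.15 and -0.15 ± 0.18. Slc7a2 had 0.06 ± 0.45, Slc7a6 -0.26 ± 0.14 and Slc1a5 0.22 ± 0.15. In SLC38, Slc38a3 had -0.18 ± 0.26, Slc38a9 -0.03 ± 0.14, Slc38a10 0.09 ± 0.16 and Slc38a1 1.03 ± 0.50. Slc36a1 had 0.07 ± 0.17, and the low members Slc36a2, Slc1a3 and Slc7a7 had 0.91 ± 0.59, -0.95 ± 0.46 and 1.199 ± 0.80.

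**Figure D5:**
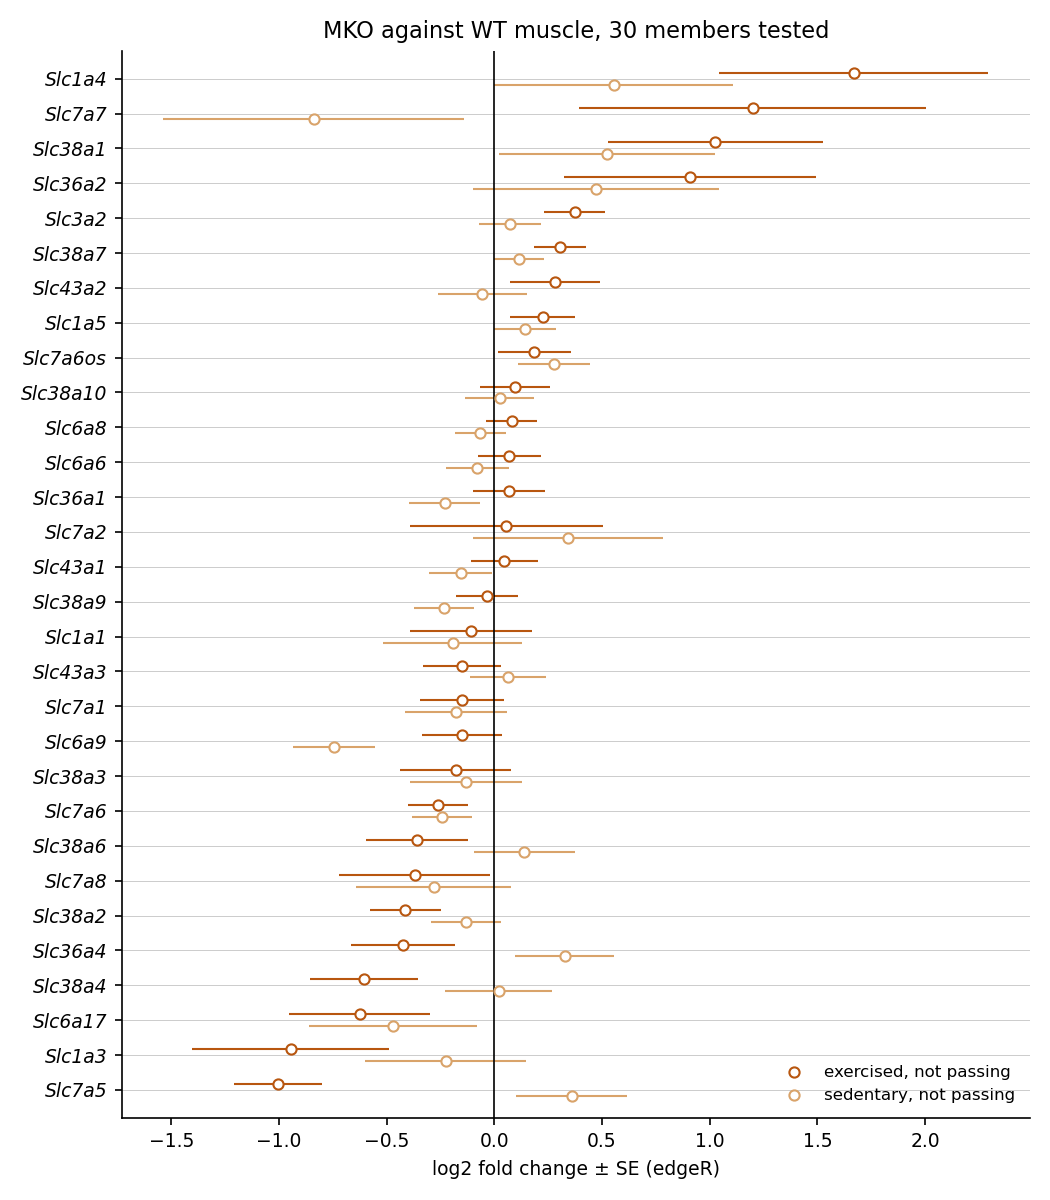
Log2 fold change ± SE (x axis) of MKO against WT muscle for the 30 tested members, exercised (dark) and sedentary (light); open points did not pass with edgeR, and no member did. Slc7a5 lies at -1.003 in exercised and 0.36 in sedentary muscle.

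The exercise response of MKO was also set against that of WT in a single test. With edgeR 0 of 30 members and 0% of all genes passed, and 0 members passed with DESeq2 or limma-voom. An unadjusted edgeR p under 0.05 was seen for 534 of all 14486 genes and for 3 of the 30 members. These were Slc7a5 (-1.36 ± 0.33, the 12th smallest p of all genes), Slc36a4 (-0.75 ± 0.33) and Slc6a9 (0.60 ± 0.27), each at an edgeR adjusted p of 0.983. For Slc7a5 the difference lay between -1.61 and -1.15 over 20 alternatives, and the adjusted p was never below 0.339. A difference between the genotypes in the Slc7a5 response is therefore not shown by this test. For Slc7a1 the difference was 0.03 ± 0.30, for Slc3a2 0.30 ± 0.20 and for Slc38a2 -0.28 ± 0.23.

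Genes that act with the carriers were followed in 6 lists, chosen with earlier results of these data known. The counts below are to be set beside the share of all genes that passed after the run. That was 8.24% in WT and 4.05% in MKO (edgeR). The integrated stress response is a program that answers amino acid shortage through ATF4. Of its 29 tested genes, 3 rose and 1 fell in WT muscle after the run, and 2 rose and 1 fell in MKO muscle. Atf4 itself rose in both, by 0.45 ± 0.11 in WT and 0.45 ± 0.11 in MKO (edgeR adjusted p = 0.0232 and 0.0399). Ppp1r15a, which ends the response by restoring translation, rose by 0.98 ± 0.23 and 0.97 ± 0.23 (edgeR adjusted p = 0.0214 and 0.0396). Leaving out single libraries ended the calls of both genes in both genotypes. For WT these were sedentary replicates 3 and 4 and exercised replicate 4 for either gene, with exercised replicate 3 for Atf4 and 5 for Ppp1r15a. For MKO they were sedentary replicates 2 and 3 and exercised replicates 2 and 4, with sedentary replicate 1 for Atf4. Eprs, the glutamyl-prolyl-tRNA synthetase, rose in WT by 1.27 ± 0.20 (edgeR adjusted p = 0.00231).

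Chac1, an ATF4 target that degrades glutathione, went the other way. It fell by 2.43 on the log2 scale in WT (SE 0.43; 176 to 32.7 CPM; edgeR adjusted p = 0.00428) and by 2.12 in MKO (SE 0.42; adjusted p = 0.0156). The MKO call was lost without sedentary MKO replicate 1 or exercised MKO replicate 1 or 2. The median over the 29 genes was 0.11 in WT and 0.09 in MKO, against -0.007 and 0.002 over all genes.

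Of 38 genes of amino acid sensing by mTORC1, 1 rose in each genotype. Of all genes, 4.14% passed as higher in WT and 2.29% in MKO. In WT it was Kptn, of the KICSTOR complex (0.40 ± 0.11, edgeR adjusted p = 0.0402). In MKO it was Flcn, folliculin (0.79 ± 0.18, edgeR adjusted p = 0.0321). The Kptn call was lost without any of the 5 libraries sedentary WT 1, 3 or 4 and exercised WT 3 or 4, and with DESeq2. That of Flcn was lost without sedentary MKO replicate 2 or 3 or exercised MKO replicate 2 or 4. The medians were -0.02 and -0.01. None of 22 genes of branched-chain amino acid catabolism passed, with medians of 0.11 and 0.09. Of 13 genes of glutamine, glutamate and alanine metabolism, Gpt2, the mitochondrial alanine aminotransferase, rose in WT by 1.09 ± 0.19 (185 to 393 CPM; edgeR adjusted p = 0.00362). In MKO it had 0.62 ± 0.19 (adjusted p = 0.0995).

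Of 8 creatine and taurine genes, Fmo1, which makes taurine from hypotaurine, fell by 1.05 on the log2 scale in WT and by 0.96 in MKO (edgeR adjusted p = 3.85e-05 and 0.000141), with both calls kept in all 15 alternatives. None of 12 other amino acid carriers passed. No gene of the 6 lists passed between MKO and WT in either state, or in the comparison of the responses.

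These are bulk samples, in which fewer cells of a type and less RNA per cell cannot be told apart. Markers of other cell types moved with the run. Of all genes, 4.14% passed as higher and 4.1% as lower in WT, and 2.29% and 1.75% in MKO. Of 8 fibro-adipogenic markers, 5 fell in WT (median -0.81; summed 470 to 581 CPM at rest and 269 to 300 after the run). In MKO 4 fell (median -0.70; 614 to 626 CPM at rest and 284 to 411 after the run). Pdgfra had -1.63 ± 0.14 and -1.22 ± 0.13. In WT, Dpt and Pi16 both lost their calls without exercised replicate 3 or 5, which leaves 3 of the 5. Of 8 smooth muscle and pericyte markers, 3 fell in WT and 2 in MKO. The call of Tagln in WT was lost without any single WT library, and that of Notch3 in MKO without any single MKO library other than exercised replicate 1. Of 10 endothelial markers, 3 rose and 1 fell in WT, and 1 rose and 1 fell in MKO, with Cldn5 at 1.61 ± 0.21 and 0.95 ± 0.21. In WT, Flt1 and Esam both lost their calls without sedentary replicate 3 or exercised replicate 3 or 5, which leaves Cldn5 as the marker that rose. In MKO the Cldn5 call was lost without sedentary replicate 1, 2 or 3 or exercised replicate 2, which leaves none. The summed endothelial level was 244 to 296 CPM in sedentary WT and 265 to 313 in exercised WT, 229 to 297 in sedentary MKO and 199 to 277 in exercised MKO muscle.

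Between the genotypes no cell type marker passed, and several lists lay on one side of 0. Of all 14486 genes, 7321 were positive in MKO against WT in sedentary and 7403 in exercised muscle. Of the 4 tested adipocyte markers 3 were negative in sedentary (median -0.13) and 4 in exercised muscle (median -0.80). Of 10 fast-fibre markers 8 were negative in sedentary (median -0.11) and 7 in exercised muscle (median -0.13). In MKO against WT all 10 macrophage markers were positive in sedentary (median 0.58) and in exercised muscle (median 1.17). So were all 8 fibro-adipogenic (0.22 and 0.51), all 8 slow-fibre (0.58 and 0.37) and all 5 red blood cell markers (0.93 and 0.43). Of 8 Schwann cell markers 8 were positive at rest and 6 after the run (0.60 and 0.31). At rest the Schwann sum was 68.3 to 168 CPM in WT and 379, 87.8 and 80.3 CPM in MKO replicates 1, 2 and 3. Slow-fibre genes summed there to 595 to 1067 CPM in WT and 1898, 1612 and 115 CPM in the same MKO libraries. Red blood cell sums at rest were 419 to 1683 CPM in WT and 1357 to 2278 CPM in MKO. All of these ranges overlapped between the genotypes. The macrophage sum was 49.8 to 61.4 CPM in exercised WT and 65.3 to 156 CPM in exercised MKO muscle, and 77.9 to 111 and 120 to 166 CPM at rest. After the run 2 of the 10 macrophage markers fell in WT and 1 in MKO, where 4.1% and 1.75% of all genes did. C1qc in WT lost its call without any single WT library, and Cd163 in MKO lost its call without sedentary replicate 3. Of the 6 B and T lymphocyte markers at least 4 were at 0 in every library, and none of the red blood cell, slow-fibre, fast-fibre, Schwann cell, adipocyte or satellite cell markers passed in any comparison. The part of these cell types in the transporter changes was not tested.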

How the data were processed

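The authors deposited raw counts per Ensembl gene for the 12 libraries. Tools listed in the submitters' processing notes are HISAT2 2.2.1 and StringTie 2.1.4, FastQC 0.12.1, SAMtools 1.9, DESeq2 1.40.2 and R 4.3, with the builds GRCm38.p6 and mm10. How reads were counted, with or without strand, and how reads with several matches were treated is not given in these sources. Overlapping and antisense genes are therefore uncertain. A misspelt column name was read as exercised MKO replicate 4, since no other column matched that library. Symbols came from GENCODE M21 (42548 of 43432 identifiers; the others hold 0.0875% of counts).

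Counts were fitted with edgeR 4.0.16 in R 4.3.3: filterByExpr (minimum count 10, total 15; 14486 genes), TMM factors, 1 quasi-likelihood model with a mean for each of 4 groups, 8 residual degrees of freedom, and Benjamini-Hochberg adjustment over all genes at 0.05. The biological coefficient of variation was 15.3%. SEs were derived from the F statistic. Alternatives were DESeq2 1.42.0, limma-voom (limma 3.58.1), other scalings and filters, the compared groups alone, the replicate number as a block, and libraries left out. The script was tested on simulated data. No replicates were duplicates of each other.

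The members and lists were chosen with earlier results of these data known. Named were 22 members always, others that passed, the 3 smallest p-values per comparison and, of lists, genes that passed. Figures used matplotlib 3.10.9 in Python 3.11.15. Values of 1 member are not reported here.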

Additional observations from a re-analysis of the deposited data

How the results depend on the processing

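Over all alternatives run, no member that passed changed sign. Slc7a5 in WT and Slc7a1 in both genotypes passed in 15 of 15 alternatives, Slc7a5 in MKO in 14, Slc43a1 in WT in 8, Slc38a7 in WT and Slc3a2 in MKO in 6. In WT 4 members passed after the run, and 2 to 4 with single libraries left out (2 without exercised WT replicate 3). Which members passed also changed. Without sedentary WT replicate 1 they were Slc6a6, Slc7a1, Slc7a5 and Slc7a8. Without sedentary WT replicate 3 they were Slc7a1, Slc1a5, Slc7a5 and Slc43a1. In MKO 3 passed, and 1 to 3 with single libraries left out (1 without sedentary MKO replicate 2). Between exercised MKO and WT 0 passed, but 1 with DESeq2 and 0 to 1 with single libraries left out. Calls over all genes changed by over 1.5 times in some settings: from 5 to 95 with DESeq2 and 108 without exercised MKO replicate 2 in that comparison, and in MKO after the run from 586 to 316 without exercised MKO replicate 2 and 341 without sedentary MKO replicate 2.

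The deviations of same-numbered libraries had correlations of -0.15 to 0.08 over 10 pairs, against -0.10 to 0.11 over 44 other pairs. So few pairs could miss a weak shared effect, and the labels do not say whether the numbers pair samples. With the replicate number as a block, 2 members passed in WT (Slc7a5 and Slc7a1) and 2 in MKO (the same genes), and 602 and 361 of all genes. Scaling by total counts alone shifted the median of all genes to -0.10 in WT and -0.15 in MKO after the run. For members near 0 that never passed, the sign often depended on the setting. With 3 counts at 0.181 to 0.222 CPM, values of members under 1 CPM rest on few counts.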

Other observations

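Several members lie near each other in the genome (GRCm38). Other genes between them were not looked at. Slc38a2 and Slc38a4, the first and the third most abundant members per kb of exon, are 295 kb apart on chromosome 15. Slc38a1 lies 44.5 kb from Slc38a2, and over the 12 libraries it stayed at 0.283 to 1.72 CPM while Slc38a2 was at 121 to 268 CPM. Slc43a1 and Slc43a3 are 73.0 kb apart on chromosome 2, Slc36a2 and Slc36a1 19.3 kb apart on chromosome 11, and Slc7a7 and Slc7a8 304 kb apart on chromosome 14. After the run in WT muscle Slc43a1 passed and Slc43a3 did not (-0.66 and -0.24). In MKO muscle they had -0.45 and -0.46, and neither passed (edgeR adjusted p = 0.143 and 0.239). The difference between these genes was not tested.

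The cationic carrier Slc7a2 varied most among the abundant members. It ranged from 11.5 CPM in exercised WT replicate 3 to 84.0 CPM in sedentary MKO replicate 3, and the other 10 libraries lay between 28.7 and 60.6 CPM.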
